A study of Mus musculus with 15 samples.

Results

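CXCR3 is a chemokine receptor carried by activated T cells and natural killer cells, and CXCL9, CXCL10 and CXCL11 are the ligands that other cells release toward it. The genes studied were Cxcr3 and the ligand genes Cxcl9, Cxcl10 and Cxcl11, taken with all of their probes by the symbol of the accession that the array files give, and their levels were compared over 5 groups of tissue. Of these 4 genes, 3 (Cxcl9, Cxcl10 and Cxcr3) were matched to a probe, among 18217 symbols matched in all, and each was read by 1 probe. Cxcl11 had no matched probe, since RefSeq now lists that gene in the C57BL/6J reference as a transcribed pseudogene under an accession that no probe carries. A probe with the accession NM_019494, an older mRNA record of Cxcl11 by general knowledge and not by the table used, is described beside the other probes under its accession and is left out of the counts of genes.

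The samples were 15 single-colour arrays of whole graft or organ, 3 in each group, from male mice whose ages are not given in the sources used here. Cardiac allografts at POD5 (the fifth post-operative day) were B10 (C57BL/10, H-2b) hearts placed in the abdomen of CBA (H-2k) recipients, and their controls were hearts with no allogeneic transplant. Hepatic allografts at POD5 and at POD8 were B10.BR (H-2k) livers placed orthotopically in B10.D2 (H-2d) recipients, with hepatic controls. The labels call the controls normal tissue and the study's results call them isografts, and they are named controls here. Neither the labels nor the study's methods give the strain of the controls, so that strain and allografting cannot be told apart. Donor, recipient strain and surgery all differed between the organs, so that organ and strain cannot be told apart, and donor and recipient RNA of a graft were measured together. The labels give no animal for each array, and the P-values measure the spread between these arrays.

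Interferon-gamma, released by activated T cells and natural killer cells, acts through its receptor and induces CXCL9, CXCL10 and CXCL11 in macrophages, endothelium and parenchymal cells. The ligands draw in further cells that carry CXCR3, many of which make interferon-gamma themselves. CXCL9 depends largely on interferon-gamma, whereas CXCL10 also answers to type I interferon and to NF-kappa B. In rejected grafts the receptor and ligands are known as marks of a T helper type 1 response.

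The windows before the start sites of the 3 matched genes are shown because all 3 genes were called higher in every allograft group, and because they can be searched for short forms known from interferon-responsive and NF-kappa B-responsive genes. Sequences are from RefSeq (GRCm38.p6), 250 bases up to the start site, 5′ to 3′ along the strand of the gene. All 3 genes lie on the minus strand, Cxcl9 at chr5:92328080-92328329, Cxcl10 at chr5:92348890-92349139 and Cxcr3 at chrX:101734148-101734397. Capitals mark a match, on either strand, to an interferon-stimulated response element core (ISRE core, GAAANNGAA) or to a kappa B form (GGNNNTTCC).
Cxcl9: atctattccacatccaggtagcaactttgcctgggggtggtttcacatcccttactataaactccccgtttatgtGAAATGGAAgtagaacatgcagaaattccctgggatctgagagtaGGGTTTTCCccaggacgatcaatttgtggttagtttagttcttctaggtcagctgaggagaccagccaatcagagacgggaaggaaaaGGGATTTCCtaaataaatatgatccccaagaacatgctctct
Cxcl10: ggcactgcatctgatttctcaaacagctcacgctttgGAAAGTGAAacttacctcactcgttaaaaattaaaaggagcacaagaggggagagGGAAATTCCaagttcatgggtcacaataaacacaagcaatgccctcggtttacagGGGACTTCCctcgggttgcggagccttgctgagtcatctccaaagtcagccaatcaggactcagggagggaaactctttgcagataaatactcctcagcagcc
Cxcr3: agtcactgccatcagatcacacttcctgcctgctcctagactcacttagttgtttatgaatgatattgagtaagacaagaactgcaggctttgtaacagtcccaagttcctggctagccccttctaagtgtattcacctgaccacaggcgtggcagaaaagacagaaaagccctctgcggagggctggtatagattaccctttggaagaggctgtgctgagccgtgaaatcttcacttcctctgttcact
The Cxcl9 window held 1 ISRE core, at -175 to -167 from the start site, and 2 kappa B forms, at -130 to -122 and at -42 to -34. The Cxcl10 window held 1 ISRE core at -213 to -205 and 2 kappa B forms at -158 to -150 and -103 to -95. Both promoters therefore had the same order of forms, with the ISRE core farthest from the start. No match was found in the Cxcr3 window, which says only that these letters are absent from it. Over 32851 promoter windows of 300 bases, 8.56% held the ISRE core and 18.5% the kappa B form. A gamma-activated site (GAS, TTCNNNGAA), known from genes induced by interferon-gamma, and a T-box form (GGTGTGA) were searched too and matched none of the 3 windows, against 8.3% and 3.98% of all windows. This again says only that these letters are absent, since other forms of such sites were not searched. On chromosome 5 the order of neighbours was Cxcl9, Art3, Cxcl10 and Cxcl11.

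**Figure D1:**
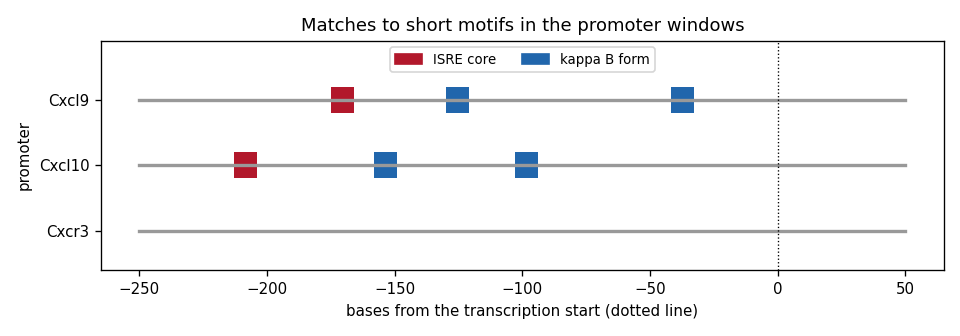
Places of the motif matches in the promoter windows of Cxcl9, Cxcl10 and Cxcr3, by distance in bases from the transcription start (dotted line). Red boxes are ISRE cores and blue boxes kappa B forms, and the Cxcr3 line is empty.

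The levels below are log2 signals after quantile normalization over the 15 arrays, and a difference on this scale is a log2 fold change between groups for 1 probe, never between probes. The 75th percentile of the signal before normalization ranged from 87.7 to 216 on the hepatic control arrays and from 938 to 1154 on the cardiac control arrays, with the allografts between 319 and 652. Cardiac allografts lay on a slide that they shared with 1 hepatic POD5 array, and cardiac controls on another slide, so that slide and cardiac group cannot be told apart. Hepatic POD5 arrays shared no slide with hepatic controls or with POD8 arrays, so that slide and these groups cannot be told apart. With slide as a random block the 3 genes stayed called at POD5 (adjusted P-values of 0.0142 to 0.0215 with limma), as were 573 of 41155 probes. Since no slide held both groups, this block does not separate slide from group. All 7 cardiomyocyte markers were called higher, and all 5 measured hepatocyte markers lower, in cardiac than in hepatic controls, which matched the labelled organs. No 2 arrays of a group held the same values, and no spot was saturated. The 4 probes were well above background on all 15 arrays.

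Cxcl9, the ligand most tied to interferon-gamma, had its highest level in the cardiac allografts. On the cardiac allograft arrays its log2 signal was 16.22, 16.73 and 16.42, and on the cardiac controls 9.89, 8.66 and 9.41. On the hepatic arrays it was 15.11, 15.09 and 15.86 at POD5, 14.78, 14.91 and 14.54 at POD8, and 8.89, 9.99 and 9.41 in controls. Every allograft array lay above every control array of its organ, with no overlap. In order of mean level the groups were cardiac allografts, hepatic POD5, hepatic POD8, hepatic controls and cardiac controls, and in that order only the ranges of the 2 control groups overlapped.

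Cxcl10, which also answers to type I interferon, had a higher level in control heart than in control liver. Its log2 signal was 15.17, 15.41 and 15.24 in cardiac allografts and 10.95, 10.11 and 10.46 in cardiac controls. In hepatic allografts it was 12.41, 12.42 and 12.48 at POD5 and 12.83, 12.97 and 12.66 at POD8, against 7.74, 8.15 and 8.76 in hepatic controls. The 5 groups did not overlap at any neighbouring pair of the order cardiac allografts, hepatic POD8, hepatic POD5, cardiac controls, hepatic controls.

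Cxcr3, the receptor, reached like levels in the grafts of both organs at POD5. Its log2 signal was 10.08, 9.72 and 10.75 in cardiac allografts and 6.71, 6.60 and 6.66 in cardiac controls. In hepatic allografts it was 9.76, 10.29 and 10.58 at POD5 and 9.33, 9.39 and 8.95 at POD8, and in hepatic controls 5.75, 6.67 and 5.90. The ranges overlapped between cardiac and hepatic allografts at POD5 and between the 2 control groups. The hepatic POD8 arrays lay below all 6 arrays of POD5 allografts and above all control arrays.

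The NM_019494 probe behaved otherwise in liver. Its log2 signal was 10.13, 11.49 and 10.33 in cardiac allografts and 3.71, 3.06 and 3.30 in cardiac controls. In liver it was 7.47, 7.57 and 8.03 at POD5 and 7.86, 8.36 and 7.77 at POD8, against 8.16, 6.88 and 6.18 in controls. Cardiac groups were far apart, while the 3 hepatic groups overlapped each other. The signal of this probe before normalization was 1663 to 2819 in cardiac allografts and 15.1 to 30.7 in cardiac controls, and 184 to 306 over the 6 hepatic allograft arrays against 39.4 to 61.0 in hepatic controls. On that unscaled signal the hepatic allografts lay above their controls, whose arrays were dimmer as a whole.

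**Figure D2:**
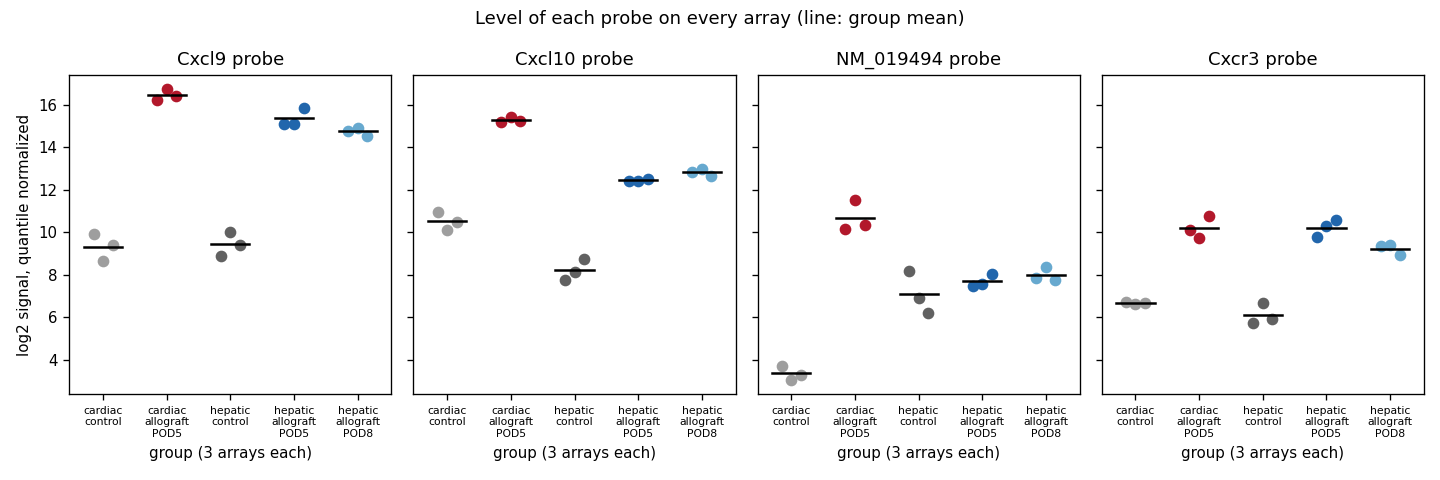
The log2 signal (vertical axis, quantile normalized) of the Cxcl9, Cxcl10, NM_019494 and Cxcr3 probes on each of 15 arrays (points) in 5 groups (horizontal axis), with the group mean as a line. Allografts lay above the controls of their organ on every array except for the NM_019494 probe in liver.

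The first comparison asked which genes differed in cardiac allografts at POD5 from cardiac controls. Cxcl9 was 140-fold higher, by 7.13 ± 0.34 on the log2 scale (SE, 3 arrays against 3, adjusted P = 0.00061 with limma and Benjamini-Hochberg adjustment). Cxcl10 was 27.3-fold higher (log2 4.77 ± 0.23, adjusted P = 0.00061) and Cxcr3 11.5-fold higher (log2 3.53, adjusted P = 0.00137). The NM_019494 probe was 157-fold higher (log2 7.29, adjusted P = 0.000761). All 3 matched genes were called higher, where 15.6% of the 41025 probes tested were called higher and 32% were called in either direction. For all 3, every allograft array lay above every control array, which held for 29.1% of probes. Among all probes, the difference of the NM_019494 probe ranked 10, that of Cxcl9 12, that of Cxcl10 73 and that of Cxcr3 208.

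In the hepatic allografts at POD5, Cxcl9 was 60.6-fold higher than in hepatic controls (log2 5.92 ± 0.37, SE, adjusted P = 0.00737 with limma). Cxcl10 was 18.7-fold higher (log2 4.23, adjusted P = 0.00826) and Cxcr3 17.2-fold higher (log2 4.11, adjusted P = 0.0109). With normexp background correction the Cxcr3 difference was 3.10, and it was 2.75 in heart and 2.28 at POD8, in place of 3.53 and 3.12, with all 3 still called. All 3 matched genes were called higher, where 2.38% of 41155 probes were called higher and 3.16% in either direction, and all 3 were separated from controls on every array, as were 12.4% of probes. Cxcl9 ranked 12, Cxcl10 98 and Cxcr3 115 by size of difference. The NM_019494 probe differed by 0.62 on the log2 scale (95% interval -0.72 to 1.95, adjusted P = 0.561) and ranked 6599. These calls rested on few arrays: without the POD5 allograft replicate 1 or replicate 2, none of the 3 genes passed the threshold, with adjusted P-values of 0.0513 to 0.0713, while the differences stayed between 4.08 and 6.05. Over all probes, only 80 passed without replicate 1 and 28 without replicate 2.

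At POD8 the 3 genes were again called higher against hepatic controls. Cxcl9 was 39.7-fold higher (log2 5.31, adjusted P = 0.00269 with limma), Cxcl10 24.4-fold (log2 4.61, adjusted P = 0.00313) and Cxcr3 8.69-fold (log2 3.12, adjusted P = 0.00909). At this time 3.53% of 41157 probes were called higher and 4.97% in either direction, and 12.9% were separated upward on every array, as all 3 genes were. The ranks by size of difference were 26 for Cxcl9, 57 for Cxcl10 and 315 for Cxcr3. The NM_019494 probe differed by 0.92 (95% interval -0.42 to 2.27, adjusted P = 0.379). Within the slide that held 2 POD8 allografts and 2 controls, the differences were 5.40 for Cxcl9, 4.96 for Cxcl10, 3.15 for Cxcr3 and 0.59 for the NM_019494 probe. With slide as a block the 3 genes no longer passed, with adjusted P-values of 0.0561 to 0.0967, and 0 of all 41157 probes passed. POD5 and POD8 allografts were set against the same control arrays.

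**Figure D3:**
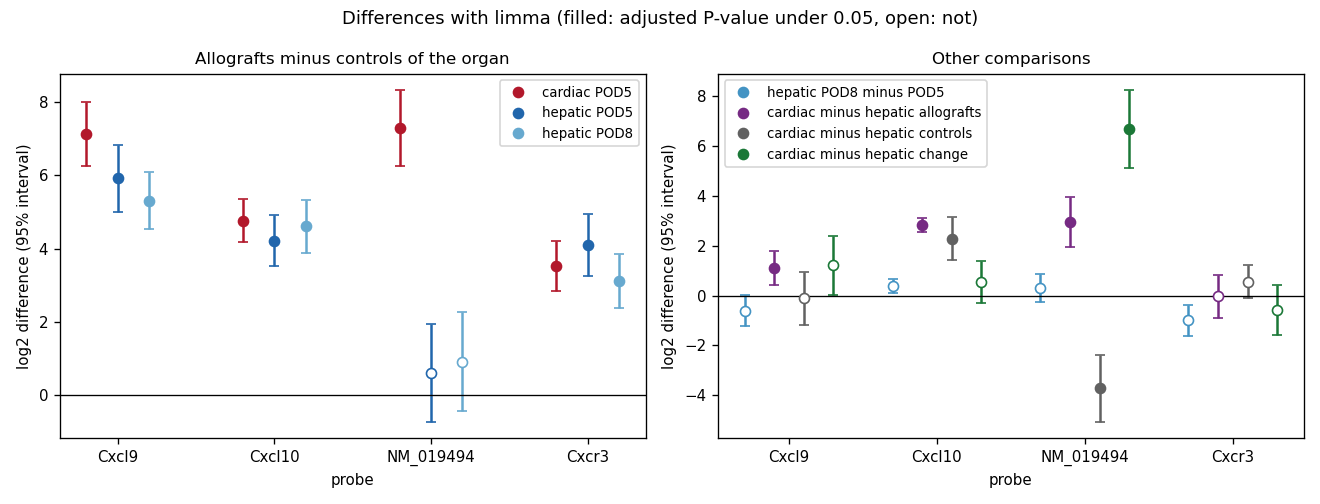
Log2 differences (vertical axis) of the Cxcl9, Cxcl10, NM_019494 and Cxcr3 probes (horizontal axis), with 95% intervals as bars, for allografts minus controls of the organ (left) and for 4 further comparisons (right). Filled points passed an adjusted P-value of 0.05 with limma, and on the left only the NM_019494 probe in liver did not.

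Between POD5 and POD8 the hepatic allografts were compared directly. Cxcl9 was lower at POD8 by 0.61 on the log2 scale (95% interval of the difference -1.23 to 0.01, adjusted P = 0.396 with limma), Cxcl10 higher by 0.38 (0.10 to 0.66, adjusted P = 0.301) and Cxcr3 lower by 0.99 (-1.62 to -0.36, adjusted P = 0.271). On the arrays, the POD8 values of Cxcl9 and Cxcr3 all lay below those at POD5, and those of Cxcl10 all above. The share of all probes separated in this way was not computed for this comparison, so no weight can be given to it. With limma, 0 of 3 genes were called, as were 0% of 41165 probes. At an unadjusted P under 0.05, Cxcl10 (0.0166) and Cxcr3 (0.0092) passed, as did 12.9% of all probes. The NM_019494 probe differed by 0.30 (adjusted P = 0.593).

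The change in heart was then set against the change in liver at POD5, as an interaction in 1 limma fit of 12 arrays. The cardiac change of Cxcl9 was larger by 1.21 (95% interval 0.04 to 2.39, adjusted P = 0.154), that of Cxcl10 by 0.54 (-0.30 to 1.39, adjusted P = 0.362), and that of Cxcr3 was smaller by 0.58 (interval of the difference -1.60 to 0.44, adjusted P = 0.419). None of the 3 genes was called, where 13.7% of 41006 probes were. The NM_019494 probe passed the test, with a cardiac change larger by 6.68 (5.11 to 8.25, adjusted P = 0.00092). In both donor and recipient the hepatic model used mice of B10 background, while the cardiac recipients were CBA, and the part of strain in this difference cannot be told apart from that of organ.

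Levels were also compared between the organs directly. In controls, Cxcl10 was higher in heart by 2.29 on the log2 scale (adjusted P = 0.00363 with limma) and the NM_019494 probe lower by 3.72 (adjusted P = 0.00308), whereas Cxcl9 differed by -0.11 (95% interval -1.18 to 0.96, adjusted P = 0.85) and Cxcr3 by 0.56 (-0.11 to 1.22, adjusted P = 0.142). The size of the NM_019494 difference between controls depended on the processing. Over other settings and left-out arrays it ran from -4.18 to -1.37, always lower in heart. Of 41023 probes, 48.2% were called between the control organs. In allografts at POD5, Cxcl10 was higher in heart by 2.84 (adjusted P = 5.95e-05) and Cxcl9 was 2.15-fold higher (adjusted P = 0.0307), and the NM_019494 probe, which was lower in control heart, was higher in heart by 2.96 (adjusted P = 0.00423), where 29.2% of 41155 probes were called. Cxcr3 differed by -0.03 (-0.89 to 0.84, adjusted P = 0.982) between the allografts of the organs. The Cxcl9 difference was lost when any of 5 of the 6 arrays was left out (adjusted P-values of 0.0602 to 0.101), and under slide as a block it was 0.60 (adjusted P = 0.153).

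Of the interferons and inducers that act upstream, Ifng rose most. Its log2 signal was 13.99, 15.40 and 15.13 in cardiac allografts and 4.42, 4.07 and 4.35 in cardiac controls. In liver it was 9.67, 9.93 and 10.78 at POD5 and 10.41, 10.70 and 10.46 at POD8, against 3.53, 4.70 and 4.78 in controls. All allografts were above all controls, and the difference was 10.56 in heart (adjusted P = 0.000432 with limma), 5.79 in liver at POD5 (adjusted P = 0.0103) and 6.19 at POD8 (adjusted P = 0.00299). With normexp background correction the Ifng difference in heart was 8.42. Ifng was well above background on 2 of the 3 hepatic control arrays. The cardiac change was larger than the hepatic POD5 change by 4.77 (adjusted P = 0.00247). Tnf, which acts through NF-kappa B, rose in the 3 phases by 4.47, 2.55 and 3.22. With normexp the Tnf difference in heart was 3.17, and Tnf was well above background on 2 of the 3 hepatic control arrays. The share of all probes called higher was 15.6% in heart, 2.38% in liver at POD5 and 3.53% at POD8. Of the 7 genes in this list, 3 were called higher in heart (Ifng, Tnf and the receptor subunit Ifnar1) and 1 lower (the receptor subunit Ifngr2, not called after scaling to the 75th percentile), with a median difference of 0.60 against 0.02 over all probes. In liver 3 were called higher at POD5 (Ifng, Tnf and Ifngr1) and 2 at POD8, with medians of 0.17 and -0.03 against -0.07 and -0.08 over all probes. The probe of Ifnb1, a type I interferon, was not well above background in any group of the 3 phases.

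Over all probes, 15.6% were called higher in heart, 2.38% in liver at POD5 and 3.53% at POD8. Among the 10 signal transducers and regulators of interferon-gamma, 8 were called higher in heart, 3 in liver at POD5 and 4 at POD8, and none lower. Their median differences were 2.37, 0.50 and 0.78, against 0.02, -0.07 and -0.08 over all probes. Irf8, a transcription factor, rose by 3.83, 2.35 and 2.76 in heart and in liver at POD5 and POD8, and Socs1, an inhibitor of the pathway, by 5.82, 4.05 and 4.33. Irf1, a transcription factor of the interferon response, had log2 signals of 16.40, 15.99 and 16.45 in cardiac allografts and 12.29, 11.89 and 12.04 in controls, a rise of 4.21 (adjusted P = 0.000515). In liver Irf1 differed by 1.72 at POD5 (adjusted P = 0.058) and rose by 2.12 at POD8 (adjusted P = 0.0317). Stat2, which serves type I interferon, and Socs3 were called in heart alone of the 3 phases, by 2.68 and 2.06, and in the interaction their cardiac changes were larger by 2.66 and 2.15 (adjusted P-values of 0.00299 and 0.00401). In the interaction, 5 of the 10 genes (Stat2, Irf1, Irf8, Socs1 and Socs3) had a larger cardiac change, where 13.7% of all probes were called in either direction.

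**Figure D4:**
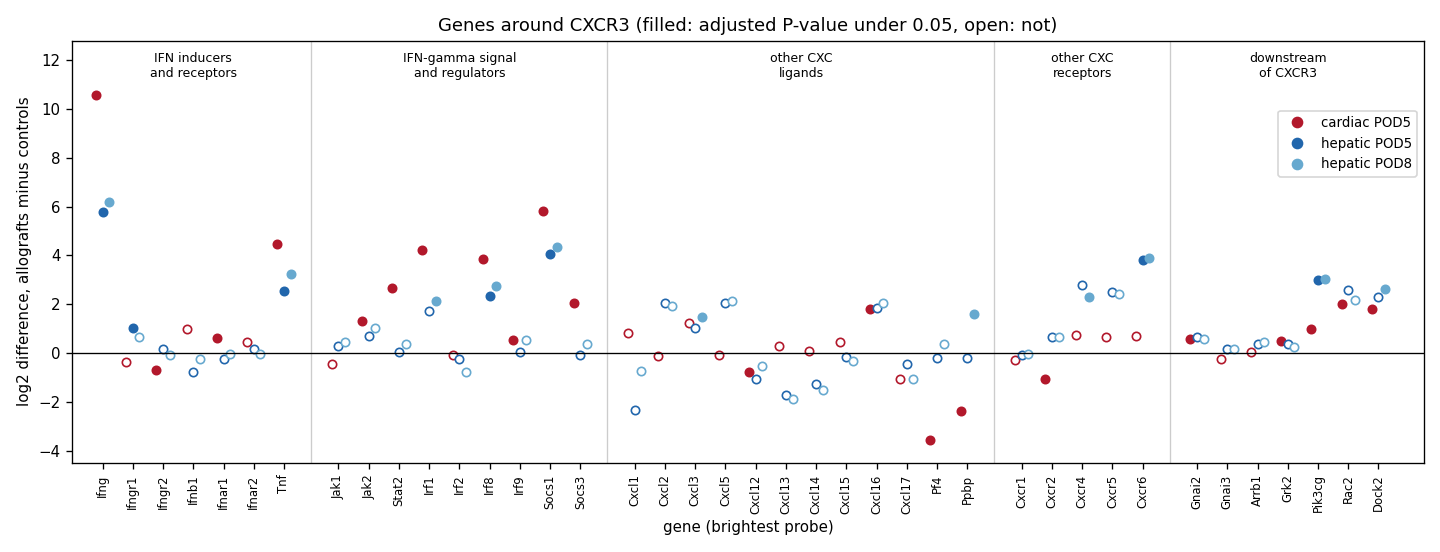
Log2 differences of allografts minus controls (vertical axis) for genes of 5 lists around CXCR3 (horizontal axis), in red for heart at POD5, dark blue for liver at POD5 and light blue for liver at POD8, filled where the adjusted P-value was under 0.05. Ifng stood highest in heart at 10.56, and most of the other CXC ligands were open points near or below 2. Some hepatic control values, those of Pik3cg among them, were not well above background.

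Of 12 other CXC ligands, 4 were called in heart, a share near the 32% of all probes called there. Heart had 1 called higher (Cxcl16, the ligand of CXCR6, by 1.78) and 3 lower, namely Cxcl12 by -0.78 and the platelet chemokines Pf4 by -3.56 and Ppbp by -2.39. In liver, 3.16% of all probes were called at POD5 and 4.97% at POD8. Liver had none of the list called at POD5 and 2 called higher at POD8, Cxcl3 and Ppbp, of which Cxcl3 was not well above background in either group. After scaling to the 75th percentile, 2 were called lower in liver at POD5, and at POD8 5 were called lower beside 2 higher. The medians over the list were -0.01, -0.21 and 0.02, against 0.02, -0.07 and -0.08 over all probes. Among 5 other CXC receptors, Cxcr2, a neutrophil receptor, was called lower in heart by -1.06. Cxcr6 was called higher in liver by 3.81 at POD5 and by 3.87 at POD8, and its difference in heart was 0.69 (adjusted P = 0.219 with limma). The hepatic change of Cxcr6 was larger than the cardiac by 3.12 on the log2 scale (the interaction, as cardiac minus hepatic, was -3.12, adjusted P = 0.00733). Cxcr4 was called higher at POD8 by 2.30. Of 4 genes whose products cut or take up CXCR3 ligands (the peptidase Dpp4, the protease Mmp9 and the atypical receptors Ackr1 and Ackr3), Ackr3 was called lower in heart by -1.01 and none was called in liver.

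Downstream of the receptor, 7 of 8 listed genes had a probe. Of all probes, 15.6% were called higher in heart, 2.38% in liver at POD5 and 3.53% at POD8. In heart 5 of the 7 genes were called higher: the G protein Gnai2 by 0.57, the kinase Grk2 by 0.51, the lipid kinase Pik3cg by 0.97, the GTPase Rac2 by 1.99 and its exchange factor Dock2 by 1.81. Gnai2 and Grk2 were not called after scaling to the 75th percentile. In liver the Pik3cg level at POD5 was called higher, at least 3.04-fold, and the POD8 level at least 3.16-fold, since it was not well above background in hepatic controls. These bounds set the allograft mean against the lowest signal well above background on the control arrays, or the probe's own where that was higher. Dock2 was called higher in liver at POD8 by 2.61. The list medians were 0.57, 0.65 and 0.56, against the medians of 0.02, -0.07 and -0.08 over all probes.

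Since Cxcr3 is carried by T cells and natural killer cells, the markers of these cells are given beside it. In whole tissue, more cells of a type and more RNA per cell cannot be told apart. The share of all probes called higher was 15.6% in heart, 2.38% in liver at POD5 and 3.53% at POD8. Of 6 T cell markers, all were called higher in heart, and 5 of 6 in liver at both times, with median differences of 4.43, 4.44 and 3.76 (0.02, -0.07 and -0.08 over all probes). Their summed signal ranged from 9363 to 13583 in cardiac allografts and from 414 to 595 in cardiac controls. In liver the sum ranged from 6249 to 10591 at POD5, from 4895 to 6381 at POD8 and from 456 to 551 in controls. The sums of the 2 hepatic allograft groups overlapped. On the mean log2 signal of the same 6 markers these groups nearly touched, at 9.62 to 10.08 for POD5 and 9.27 to 9.61 for POD8. The Cxcr3 ranges lay further apart, at 9.76 to 10.58 and 8.95 to 9.39. In the comparison of POD8 with POD5 none of the 6 T cell markers was called, and their median difference was -0.58. Of 5 natural killer cell markers, 5 were called higher in heart, 2 in liver at POD5 and 4 at POD8, and 3 of the 5 were not well above background on any hepatic control array. With normexp background correction the liver counts were 2 and 2, where 1278 of 41155 and 1670 of 41157 probes were called higher. After scaling to the 75th percentile they were 3 and 5, where 1226 and 2368 probes were called higher. Of 9 T helper type 1 and cytotoxic effector genes, 6 were called higher in each phase, with medians of 2.39, 3.91 and 3.20, but not the same 6 in heart and liver: Tbx21, Gzmb and Prf1 were in all, Il12rb2 in heart, and Stat4 and Cxcr6 in liver at both times. Tbx21, the transcription factor that drives Cxcr3 in T cells, rose by 4.73 in heart, 4.05 in liver at POD5 and 3.20 at POD8 (adjusted P-values of 0.000759, 0.0307 and 0.0235 with limma). Gzmb and Prf1, which encode killing proteins, rose by 7.81 and 6.65 in heart. In liver Gzmb rose by 7.12 and 6.76, and Prf1, which was not well above background in hepatic controls, rose at least 21.8-fold by POD5. Its bound for POD8 was 21.6-fold. Stat4 and Il18r1 had larger changes in liver than in heart at POD5 (interactions of -3.52 and -3.24, adjusted P-values of 0.00816 and 0.0267 with limma). Of the 3 hepatic control arrays, Stat4 was well above background on 1 and Il18r1 on 2.

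The exception among T cell markers was Cd3e in liver. Its log2 signal was 8.10, 8.36 and 7.49 in hepatic allografts at POD5 and 7.85, 7.98 and 8.06 at POD8, against 7.13, 7.05 and 7.57 in hepatic controls. It differed by 0.74 (adjusted P = 0.234 with limma) and 0.71 (adjusted P = 0.0933), while in heart it rose by 2.70 (adjusted P = 0.00177). Cd3d and Cd3g, other chains of the same receptor complex, rose in liver at POD5 by 5.20 and 5.51.

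To see whether Cxcr3 moved by more or less than the T cell markers, its log2 signal was taken minus the mean of the 6 marker probes on each array, and this number was compared between groups only. In heart it was lower in allografts, at -0.23, -0.34 and 0.20, than in controls, at 0.79, 0.67 and 0.36, a difference of -0.73 (exact two-sided permutation P = 0.1, the smallest that 3 arrays against 3 allow). In liver at POD5 it differed by 0.12, with overlap (exact P = 0.5). At POD8 it was lower by 0.40 than in controls (exact P = 0.1). With Cd3e alone, the exception in liver, in place of the 6 markers the differences were 0.83, 3.37 and 2.41. With this marker the direction was thus opposite in heart and at POD8, and no other marker was taken alone. The part of T cell number in the Cxcr3 levels was not tested.

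**Figure D5:**
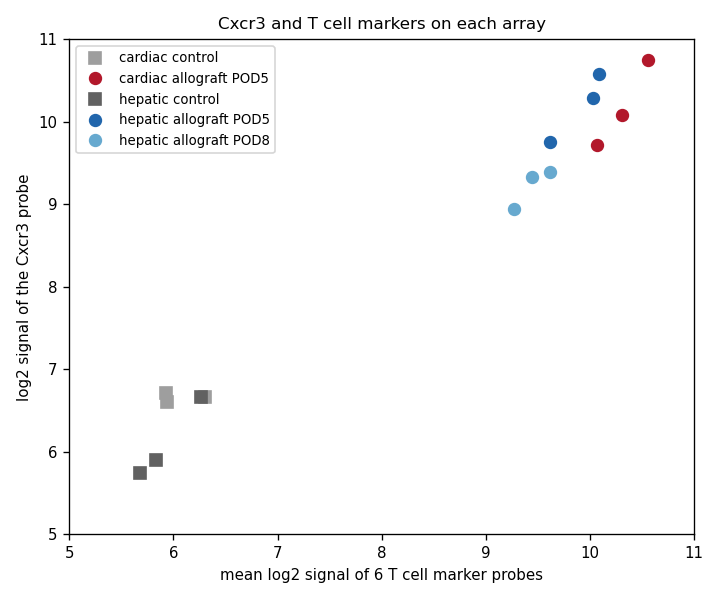
The log2 signal of the Cxcr3 probe (vertical axis) against the mean log2 signal of 6 T cell marker probes (horizontal axis) on each of 15 arrays, with squares for controls and circles for allografts. All 9 allograft arrays lay above the 6 control arrays on both axes.

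Macrophage and dendritic cell markers, whose cells are known sources of the ligands, are given with those of other cells, and over all probes 32% were called in heart, 3.16% in liver at POD5 and 4.97% at POD8, with medians of 0.02, -0.07 and -0.08. Of 6 macrophage and monocyte markers measured, 1 was called higher in heart (Ly6c2) and 2 in liver at each time (Ly6c2 and Ccr2), with medians of 0.25, 2.11 and 2.02. Of 5 dendritic cell markers, Itgax, Xcr1 and Batf3 were called higher and Zbtb46 lower in heart, and Itgax was called higher in liver at both times, with Batf3 at POD8, and the medians were 2.13, 0.68 and 0.81. All 6 endothelial markers were called lower in heart, with a median of -1.67, and in liver 1 of 6 was called lower at POD5 and none at POD8, with medians of 0.34 and 0.45. None of 4 B cell markers was called in the 3 phases (medians of -0.14, -0.31 and -0.31), although 2 were called higher in heart after scaling to the 75th percentile, and of 5 neutrophil markers 1 was called higher and 2 lower in heart and none in liver, with medians of -1.48, 0.46 and 0.87. Their part in the ligand levels was not tested.

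Among 14919 genes well above background on all arrays of at least 1 group, those with the pattern most like each member were found by the root mean square difference of centred log2 signals over the 15 arrays. For Cxcl9 these were Nkg7 (0.57), Prf1 (0.68), Zbtb32 (0.77), Gzmb (0.80) and Slamf8 (0.83). For Cxcl10 they were Gbp2 (0.33), Gbp5 (0.40), Cd274 (0.45), Tnfrsf9 (0.47) and Ccl4 (0.54). For Cxcr3 they were Skap1 (0.29), Ctsw (0.36), Itgb7 (0.36), A430093F15Rik (0.37) and Septin1 (0.38). For the NM_019494 probe the nearest was Il12rb1, at 0.80. Among themselves the members differed by 1.17 between Cxcl10 and Cxcr3, 1.38 between Cxcl9 and Cxcl10 and 1.41 between Cxcl9 and Cxcr3. These values cannot be weighed against the distances above, which are the smallest among 14919 genes. The NM_019494 probe was 1.77 to 2.02 from the 3 genes.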

How the data were processed

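Total RNA of 15 graft and organ samples was measured on single-colour Agilent arrays. The authors deposited, for each spot, an intensity from Feature Extraction 10.5.1.1 (background subtracted, not normalized between arrays), with flags in other columns, per the file headers. Here log2 was taken of the deposited intensity, outlier spots (47 to 113 per array) were left out, spots of a probe were averaged, and 41174 probes were quantile normalized over all arrays. RefSeq (GRCm38.p6) gave a symbol to 26690 of them by accession. It was used for names and promoters, since the file headers name another build. Each comparison used limma 3.58.1 (R 4.3.3) on its own arrays, with Benjamini-Hochberg adjustment over all probes tested and a threshold of 0.05. A probe counted as well above background on an array when at least 0.5 of its spots were marked so. Alternatives were the SFC statistic and t-test of the study's methods, Bonferroni adjustment, other normalizations, blocks and left-out arrays. Genes named are the members, all list genes and the 5 genes nearest each member. Members, lists and tests were chosen with earlier results of these data known. Of the listed genes, 2 were counted in their lists and are not reported by name here. The limma and SFC tests were checked on simulated data, in which SFC called many unchanged probes (1243, 1093 and 1185 in the 3 phases). Only 200 simulated probes differed between groups. SFC scales by the differences of neighbouring probes, so its error rate on the real arrays cannot be read from this check. Cxcl11, Arrb2, Cd68 and Cps1 had no matched probe and were not analysed here. The number of arrays limits the precision. Figures used Python 3.11.15 and matplotlib 3.10.9.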

Additional observations from a re-analysis of the deposited data

Results flagged for a closer look

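Changes that differed between the organs at POD5, by the interaction test with limma (log2, cardiac change minus hepatic change), are given here as values. The NM_019494 probe had a difference of 6.68, which was 3.82 with normexp background correction and passed the threshold in both. In the lists around CXCR3, the value was above 0 for Ifng (4.77), Cxcl1 (3.18), Stat2 (2.66), Irf1 (2.49), Socs3 (2.15), Socs1 (1.76) and Irf8 (1.48), and among T cell markers for Cd3e (1.96) and Cd5 (1.40). It was below 0 for Stat4 (-3.52), Pf4 (-3.36), Il18r1 (-3.24), Cxcr6 (-3.12), Ppbp (-2.17), Pik3cg (-1.998), Cxcr2 (-1.71) and Ifngr1 (-1.40). For Pf4, Ppbp and Cxcr2 the cardiac level fell. Neither organ's own difference passed the threshold for Cxcl1. The Pik3cg value was -0.13 with normexp (adjusted P = 0.645). Stat4 was well above background on 1 of the 3 hepatic control arrays. Organ, strain, slide and scan cannot be told apart in these values.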

How the results depend on the processing

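No difference of Cxcl9, Cxcl10, Cxcr3 or the NM_019494 probe changed direction between allografts and controls of an organ under any alternative. With Bonferroni adjustment of limma or of the methods' t-test, 0 of 3 genes were called in each of the 3 phases. Of all probes, limma with this adjustment called 98, 9 and 39, and the t-test 19, 6 and 14. SFC with Bonferroni adjustment called 2, 3 and 3 of the genes, and 242, 346 and 359 of all probes. In simulated data SFC also called many unchanged probes, but few probes differed there, so that its error rate here is not known. The t-test with Benjamini-Hochberg adjustment called 2 of 3 in liver at POD5, without Cxcr3 (adjusted P = 0.0531), and 231 of 41155 probes. The replicate block (replicate number as a block) left 0 of 3 called in liver at POD5 and at POD8 and 1 between allografts of the organs, and changed no other count. Of all probes it called 0 of 41155 at POD5, 0 of 41157 at POD8 and 8712 of 41155 between allografts. The numbers gave no sign of pairing the samples: correlations of same-numbered deviations ranged from -0.12 to 0.09, and in no pair of groups did every array correlate best with its own number. With 3 arrays in each group this cannot exclude a pairing. With slide as a fixed block, 0 were called at POD8 and 1 between allografts, where 0 of 41157 and 10612 of 41155 probes were called. Leaving out 1 array in turn gave 3 to 3 called in heart, 0 to 3 in liver at POD5 and 2 to 3 at POD8. Of all probes, 7573 to 17228, 28 to 1026 and 306 to 2623 were called in these runs. Cxcr3 was lost at POD8 without POD8 replicate 1 or 2, where 306 and 349 of all probes were called. Left-out arrays gave 1 to 2 between controls, where Cxcr3 was added without hepatic control replicate 2, and 1 to 2 between allografts. Of all probes, 15093 to 21409 and 8558 to 13562 were called there. Between controls, 0 were called with Bonferroni adjustment of limma, with SFC or with the t-test under Bonferroni (1142, 595 and 366 of 41023 probes). Between allografts 1 was called with Bonferroni adjustment of limma, with the t-test under Benjamini-Hochberg adjustment or with 75th percentile scaling (712, 9320 and 9951 of 41155 probes). SFC or the t-test under Bonferroni called 0 there (1301 and 189 of all probes). The unadjusted t-test called 2 of 3 between POD8 and POD5, and 4220 of 41165 probes. Near 0, Cxcl9 between controls (-0.39 to 0.22 over left-out arrays) turned to 0.22 without cardiac control replicate 2 and to 0.17 without hepatic control replicate 2. Cxcr3 between allografts (-0.31 to 0.21) turned to 0.03, 0.21, 0.01 and 0.16 without cardiac allograft replicate 1 or 2 or hepatic POD5 replicate 2 or 3. For Cxcr3 relative to T cell markers, Cd3e alone gave 0.83, 3.37 and 2.41, normexp -0.23 at POD8, and left-out arrays -0.89 to -0.62 in heart, 0.02 to 0.23 at POD5 and -0.46 to -0.28 at POD8.

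Scaling to the 75th percentile moved the median of all probes to 0.47 in heart. In liver it was -0.38 at POD5 and -0.46 at POD8, in the interaction 0.64 and between controls -0.76. All 3 genes stayed called in the 3 phases, where 21196 of 41025, 1628 of 41155 and 12875 of 41157 probes were called. Without this scaling 13116, 1301 and 2046 probes were called. The scaling moved the share of higher among called probes from 48.7% to 74.2% in heart and from 71% to 18.4% at POD8. In the interaction it moved from 46.9% to 82.3%, and between controls from 52.9% to 30.9%. Under it Ifngr2, Irf9, Gnai2 and Grk2 were no longer called in heart, nor Ifngr1 in liver at POD5, and no called gene of the lists around CXCR3 changed sign. With normexp, the NM_019494 difference in heart was 4.12 in place of 7.29. Slide or scan could not be fitted in heart, the t-test was not run for the interaction, and any probe in place of the brightest gave the same values, since each gene had 1 probe. The cause of these changes was not tested.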
